A study of Mus musculus with 20 samples.

Results

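The aminoacyl-tRNA synthetases were described across 20 RNA-seq libraries of the mouse preoptic area, the hypothalamic region that holds the gonadotropin-releasing hormone (GnRH) neurons. The members were 37 listed genes, all of them found among the 19269 genes of the count table. A member was taken as mitochondrial where its symbol ends in ars2 and as cytosolic otherwise, which gave 21 cytosolic and 16 mitochondrial genes. Tarsl2 ends in a 2 but is not the mitochondrial threonyl enzyme (Tars2), so it was counted with the cytosolic genes. Moving it to the other class altered no count of called genes in the comparison of IP with supernatant.

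Most synthetases join 1 kind of amino acid to its transfer RNAs, which makes the substrates of the ribosome. The cytosol and the mitochondria mostly use separate enzymes for the same amino acid, both encoded in the nucleus, and a few genes, among them Gars and Kars, supply both compartments. In humans, inherited variants in many of these genes are known to cause disease of the nervous system, and variants in the gene for the mitochondrial leucyl-tRNA synthetase, Lars2 in the mouse, cause hearing loss with ovarian failure.

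In the method used, translating ribosome affinity purification, a ribosomal protein tagged with green fluorescent protein (L10a-GFP) is pulled down with its messenger RNAs, giving an immunoprecipitate (IP) and a depleted supernatant. Negative IPs came from mice labelled negative for GFP expression: 3 young pools (2 labelled Wild Type and 1 labelled Floxed L10a-GFP only) and 2 adult pools labelled GnRH CRE only. One adult pool, GnRH CRE x Floxed L10a-GFP, carried the tag in GnRH neurons under a GnRH-driven Cre and gave 1 GFP-positive IP. The same 6 pools gave 6 supernatants. A further 4 pools of that tagged genotype, 2 young and 2 adult, called prior pools here, gave supernatants sequenced in a second set, with the new libraries, and in an earlier first set. All mice were female, at day 21 (young) or day 70 to 150 and in diestrus (adult), and each pool held punches from 3 to 4 mice. Genotype and age ran together in the negative pools, and no treatment of the mice was named in the labels used here.

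Libraries held 27745296 to 50517581 counts. The lowest count of any member was 19, for Mars2 in young negative IP 1, and every member passed the filter on low counts in each comparison. Summed levels of 6 neuronal marker genes ran from 3587 to 5259 CPM (counts scaled to a fixed library total and corrected for library composition) in the IPs and from 4512 to 5560 CPM in the supernatants. Those of 5 oligodendrocyte genes ran from 1816 to 6550 CPM in the IPs and from 1855 to 5221 CPM in the supernatants. In the negative pools alone, the neuronal sum was 3587 to 4326 CPM in the IPs and 4512 to 5022 CPM in the supernatants, without overlap. The sum of 5 astrocyte genes there was 315 to 1155 CPM in the IPs and 385 to 511 CPM in the supernatants. The part of cell composition in the differences between fractions was not tested. In such tissue RNA, fewer cells of a type and less RNA per cell cannot be told apart. Replicates were separate pools, except that the labels call the second-set libraries of the prior pools technical replicates of the first-set ones. Whether these repeat the RNA, the library or the sequencing run is not said.

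Apart from Lars2, the cytosolic enzymes were the more abundant class in every library. The sum of the 21 cytosolic genes was 6.17 to 8.75 times that of the 15 mitochondrial genes other than Lars2 over the 20 libraries. The cytosolic sum ran from 2018 to 2898 CPM and the mitochondrial sum without Lars2 from 272 to 373 CPM. Neither sum separated the IPs from the supernatants: the cytosolic sum was 2018 to 2416 CPM in the negative IPs and 2083 to 2244 CPM in the negative supernatants. The corresponding sums of the 15 mitochondrial genes were 272 to 327 CPM in the negative IPs and 277 to 323 CPM in the negative supernatants.

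Levels of different genes were compared per kilobase of the longest coding transcript, as means over the 10 second-set supernatants. Hars, the histidyl enzyme, was the highest cytosolic gene at 113 ± 10.8 CPM per kb (SD, n = 10), followed by Nars, the asparaginyl enzyme, at 109 ± 10.1 CPM per kb, a difference within their spread. Sars (seryl), Gars (glycyl) and Farsb (the beta subunit of the phenylalanyl enzyme) came next at 82.9 ± 6.37, 78.5 ± 11.5 and 73.7 ± 7.92 CPM per kb. Sars and Gars lay within 1 SD of each other, as did Gars and Farsb, whereas Sars and Farsb lay further apart. The lowest cytosolic levels were those of Iars (isoleucyl) at 7.81 ± 1.52 and Lars (leucyl) at 7.90 ± 0.942 CPM per kb. Qars (glutaminyl), at 8.31 ± 1.04 CPM per kb, lay within their spread. The cytosolic median was 30.3 CPM per kb. The 15 other mitochondrial genes had a median of 5.85 CPM per kb, with Fars2 (phenylalanyl) at the top, at 15.4 ± 2.80, and Mars2 (methionyl) at the bottom, at 0.559 ± 0.105 CPM per kb.

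Lars2 stood at 2548 ± 878 CPM per kb, with single libraries from 1605 to 4236 CPM per kb, and so above every other synthetase in each of the 10 supernatants. For 13 amino acids the list held a cytosolic and a mitochondrial gene of matching symbol, and these 13 cognate pairs were compared. Phenylalanine (Farsa and Farsb with Fars2), glutamate (Eprs with Ears2) and proline (Eprs with Pars2) also had both kinds of enzyme but were left out. In 11 of the 12 pairs other than leucine the cytosolic gene was the higher, by a median factor of 5.05 and at most 31.4 (Mars over Mars2). The exception was threonine, where Tars was at 0.786 of Tars2. That pair leaves out Tarsl2, the other threonyl gene counted as cytosolic. Tarsl2 was at 10.8 ± 1.58 CPM per kb, beside 9.22 ± 1.37 for Tars and 11.7 ± 1.03 for Tars2. The exception therefore holds for Tars against Tars2, and not for the sum of the cytosolic threonyl genes. The factors of the pairs depend on the transcript taken for length, which has 11294 nt for Mars2 and 2962 nt for Mars. In the leucine pair the mitochondrial gene was 322 times the cytosolic 1. This is a ratio of counts, which do not show where in Lars2 the reads lie, and Lars2 also differed between sequencing sets (below). How much of its count is Lars2 messenger was not tested.

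**Figure D1:**
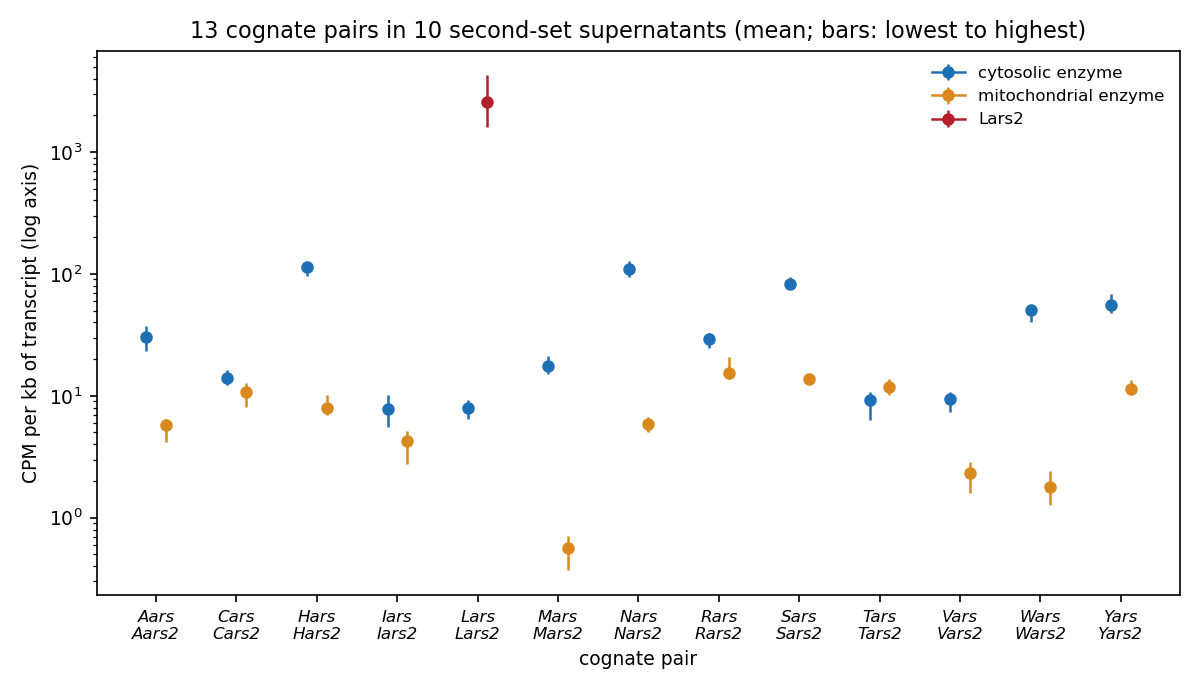
Levels of the 13 cognate pairs in CPM per kb of transcript on a log axis, as the mean of 10 second-set supernatants with bars from the lowest to the highest library. Apart from leucine, cytosolic genes (blue) lie above their mitochondrial partners (orange) in 11 of 12 pairs, and Lars2 (red), at 2548 CPM per kb, lies above every other gene shown.

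In the IPs Lars2 stood at 957, 841 and 757 CPM in the young negative pools, 990 and 1553 CPM in the adult negative pools and 708 CPM in the GFP-positive pool. In the supernatants of the same pools it stood at 16495, 12086 and 9169 CPM, at 9804 and 14513 CPM, and at 8651 CPM. Every IP lay far below every supernatant.

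By count, Lars2 ranked first of all genes in each of the 5 negative supernatants, first or second in the second-set prior supernatants, 6th to 12th in the first-set libraries, and 31st to 111th in the negative IPs. It made up 21.6% to 36.9% of all synthetase counts in the negative IPs and 78.2% to 86.8% in the negative supernatants. Its CPM was 17.2 to 42.9 times that of the next mitochondrial enzyme in the negative IPs and 220 to 444 times in the negative supernatants.

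**Figure D2:**
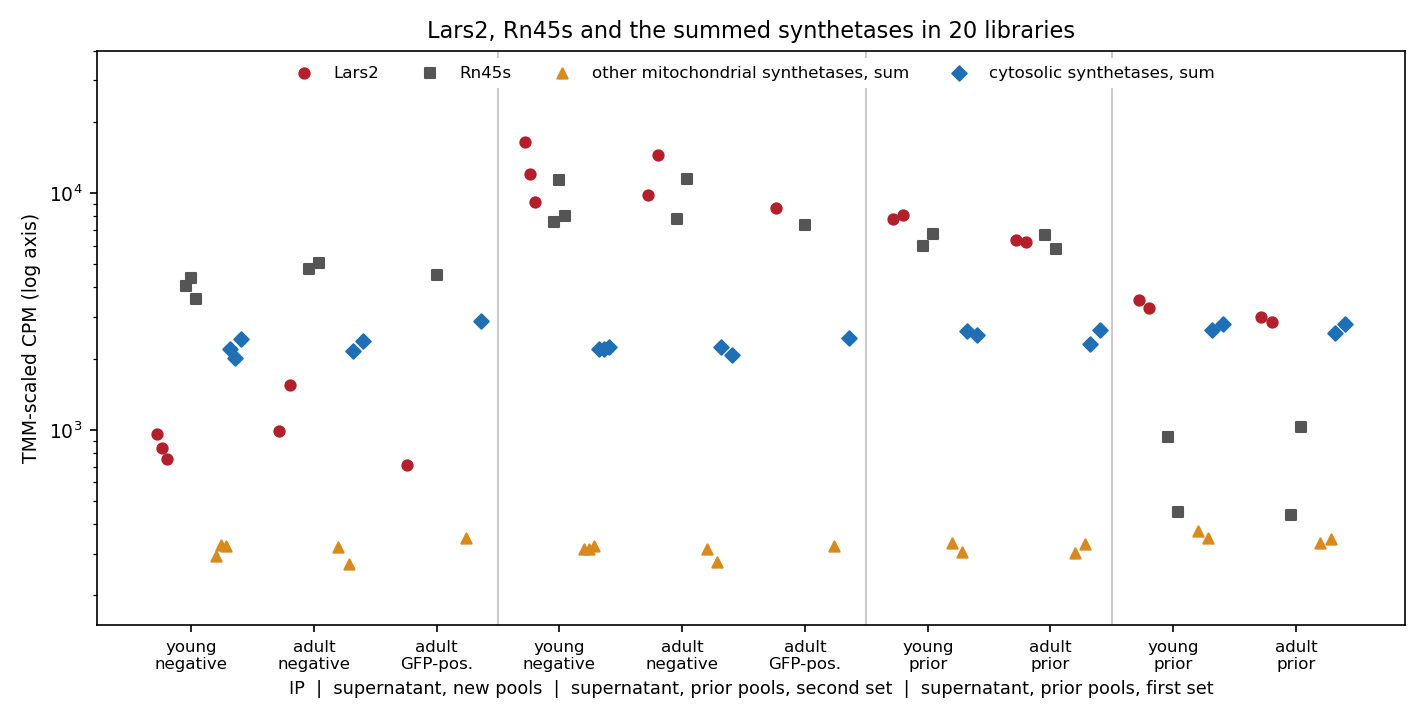
CPM on a log axis in each of the 20 libraries for Lars2, Rn45s (the ribosomal RNA precursor gene), the sum of the other 15 mitochondrial synthetases and the sum of the 21 cytosolic synthetases. Lars2 is at 708 to 1553 CPM in the IPs and at 2844 to 16495 CPM in the supernatants, whereas both sums keep to a narrow band.

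Between supernatants, Lars2 also varied more than any other member. Over the 10 second-set supernatants the SD of its log2 CPM was 0.47, against 0.10 to 0.28 for the cytosolic genes and 0.10 to 0.32 for the other mitochondrial genes. With the 4 first-set libraries added, the SD of Lars2 was 0.84, and the largest SD of another member was 0.41. In the 5 negative IPs, in contrast, the SD of Lars2 was 0.40, inside the range of the other mitochondrial genes. Their median was 0.59, and their largest, that of Mars2, was 2.00. These genes lay far lower in the IPs, with Mars2 at 0.372 CPM in young negative IP 1, against 757 to 1553 CPM for Lars2. The cytosolic median there was 0.27.

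Promoter sequence was available for 28 of the 37 members (RefSeq, GRCm38.p6, 250 bases before to 50 after the start). It was searched on both strands for TGATGNAA, the core of the element through which ATF4, the transcription factor of the amino acid response, is known to act on synthetase genes. The motif was found in 5 of 14 cytosolic and 0 of 14 mitochondrial genes, against 4.51% of 27025 genes with a promoter entry (3.97% of 32851 promoters). A match is a description of these letters and not a bound site. The windows that hold it are printed 5′ to 3′ on the strand of the gene, with the match in capitals (as its reverse complement where it lies on the other strand), because they set apart a group of cytosolic genes whose changes can be read side by side.
Aars, chr8:111033704-111033763, plus strand: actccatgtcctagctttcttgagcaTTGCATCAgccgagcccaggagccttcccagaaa
Aars, chr8:111033825-111033884, plus strand: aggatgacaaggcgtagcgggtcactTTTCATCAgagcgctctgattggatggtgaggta
Gars, chr6:55037945-55038004, plus strand: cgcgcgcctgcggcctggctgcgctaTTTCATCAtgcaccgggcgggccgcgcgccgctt
Iars, chr13:49682111-49682170, plus strand: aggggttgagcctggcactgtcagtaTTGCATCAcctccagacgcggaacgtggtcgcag
Tars, chr15:11399640-11399699, minus strand: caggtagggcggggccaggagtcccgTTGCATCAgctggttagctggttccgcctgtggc
Yars, chr4:129189880-129189939, plus strand: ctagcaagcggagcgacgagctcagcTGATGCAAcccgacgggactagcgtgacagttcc

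The first comparison asked which synthetase messengers are carried into the IP when no ribosome is tagged, that is, in the non-specific background of the method. Of 16361 genes tested, 32.1% passed an adjusted p under 0.05, against 8 of 37 synthetases. Higher in the IP were 4 cytosolic genes and no mitochondrial gene, and lower were 2 cytosolic and 2 mitochondrial genes, against 15.8% and 16.2% of all genes. At an unadjusted p under 0.05 stood 12 members, against 40.7% of genes. Without adult negative supernatant 1 the count of members was 5, and without adult negative supernatant 2 it was 4. The median log2 change was 0.02 for the cytosolic genes, -0.11 for the mitochondrial genes and -0.03 for all genes. Without Lars2 the mitochondrial median was -0.08, within a range from -0.58 to 0.59.

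Lars2 fell by 3.60 on the log2 scale (SE 0.21, adjusted p 2.3e-06), a level 12.1 times lower in the IP than in the supernatant. The only other mitochondrial enzyme that passed was Fars2, the phenylalanyl enzyme, which had 29.2, 23.98, 36.6, 20.3 and 18.4 CPM in the negative IPs and 43.7, 42.5, 30.8, 33.6 and 30.2 CPM in the negative supernatants. These groups overlapped, and the log2 change was -0.58 (SE 0.17, adjusted p 0.0232). Iars2, the mitochondrial isoleucyl enzyme, was not called, with a log2 change of -0.21 (SE 0.25). Aars2, the alanyl enzyme, had the highest mitochondrial value at 0.59 (SE 0.32, adjusted p 0.203) and was not called either.

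Among the cytosolic genes the largest rise was that of Eprs, whose single protein charges both glutamate and proline transfer RNAs. Eprs had 159, 139.5, 123, 119 and 159 CPM in the negative IPs and 68.9, 71.8, 72.8, 71.2 and 78.1 CPM in the negative supernatants. No IP overlapped a supernatant, and the log2 change was 0.91 (SE 0.12, adjusted p 2.5e-04). Vars, the valyl enzyme, had 57.8, 58.9, 53.9, 46.5 and 56.4 CPM in the IPs and 30.4, 32.8, 40.5, 40.6 and 32.4 CPM in the supernatants, again without overlap. Its log2 change was 0.58 (SE 0.14, adjusted p 0.00961).

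Iars, the isoleucyl enzyme, rose by 0.68 (SE 0.18, adjusted p 0.016), with 35.3, 49.97, 65.3, 44.3 and 49.4 CPM in the IPs and 27.5, 32.4, 32.7, 32.2 and 24.3 CPM in the supernatants. Lars, the cytosolic partner of Lars2 and a leucine sensor in the mTOR pathway, rose by 0.62 (SE 0.16, adjusted p 0.0123). Its levels were 30.8, 33.7, 46.4, 49.9 and 59.8 CPM in the IPs and 25.7, 31.7, 31.1, 26.8 and 28.9 CPM in the supernatants, with 1 IP library inside the supernatant range. The leucine enzymes moved in opposite directions.

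Kars, the lysyl enzyme, and Rars, the arginyl enzyme, were lower in the IP. Kars had 70.2, 101, 71.2, 104 and 92.9 CPM in the IPs and 137, 121, 126, 147 and 112 CPM in the supernatants, without overlap, for a log2 change of -0.56 (SE 0.14, adjusted p 0.0105). Rars changed by -0.46 (SE 0.13, adjusted p 0.0215), and its groups overlapped. Gars, which makes the glycyl enzyme of both compartments, was at 0.02 (SE 0.10), and Qars, the glutaminyl enzyme, at 0.30 (SE 0.16); neither was called.

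All libraries of the negative IPs lay above all negative supernatants for 3 members (Eprs, Iars and Vars), against 12.2% of tested genes, and below them for 2 (Kars and Lars2), against 11.7%. Of the 13 cognate pairs, 5 had changes of the same sign in cytosolic and mitochondrial enzyme.

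**Figure D3:**
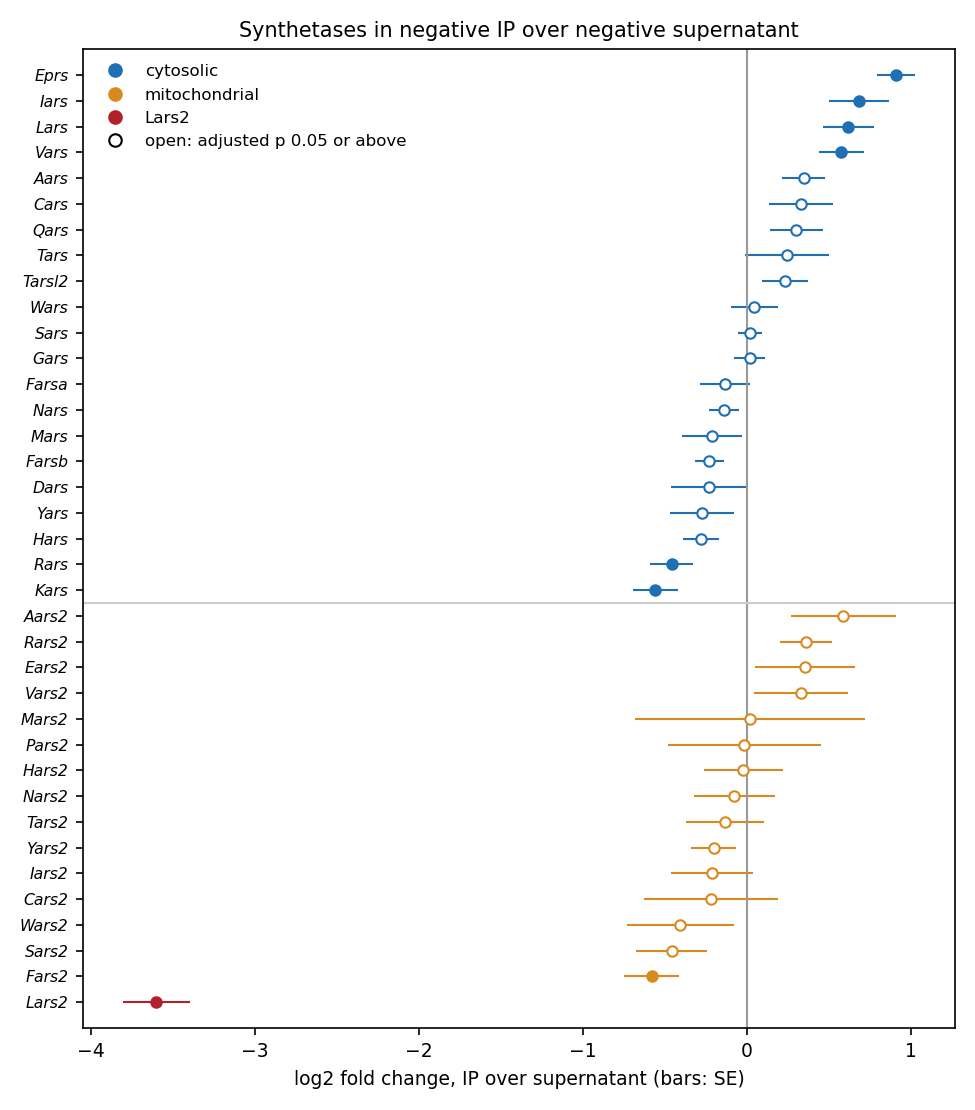
Log2 fold change of negative IP over negative supernatant for each synthetase, 5 pools in each fraction, with standard errors as bars; filled symbols mark an adjusted p under 0.05. Lars2 lies at -3.60, while the other 36 members lie between -0.58 (Fars2) and 0.91 (Eprs).

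The changes of the cytosolic genes ran with transcript length, as did those of all genes. Across the 21 cytosolic genes the rank correlation of the log2 change with the length of the longest coding transcript was 0.82, and with coding length alone it was 0.71. Across 13946 of the tested genes it was 0.49, and across the 15 mitochondrial genes without Lars2 it was 0.15 with transcript length and 0.52 with coding length. These are correlations across genes of the same libraries, which are not independent replicates. Of the called genes, Eprs, Iars, Lars and Vars have transcripts of 4906, 4426, 3980 and 4137 nt, and Kars, Rars and Fars2 of 2189, 2109 and 2125 nt. The part of length in the fold changes of single members was not tested. Lars2, at 3894 nt, falls in the length bin from 3675 to 5141 nt, 1 of 5 bins of about equal size, where the median log2 change of all genes was 0.21.

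**Figure D4:**
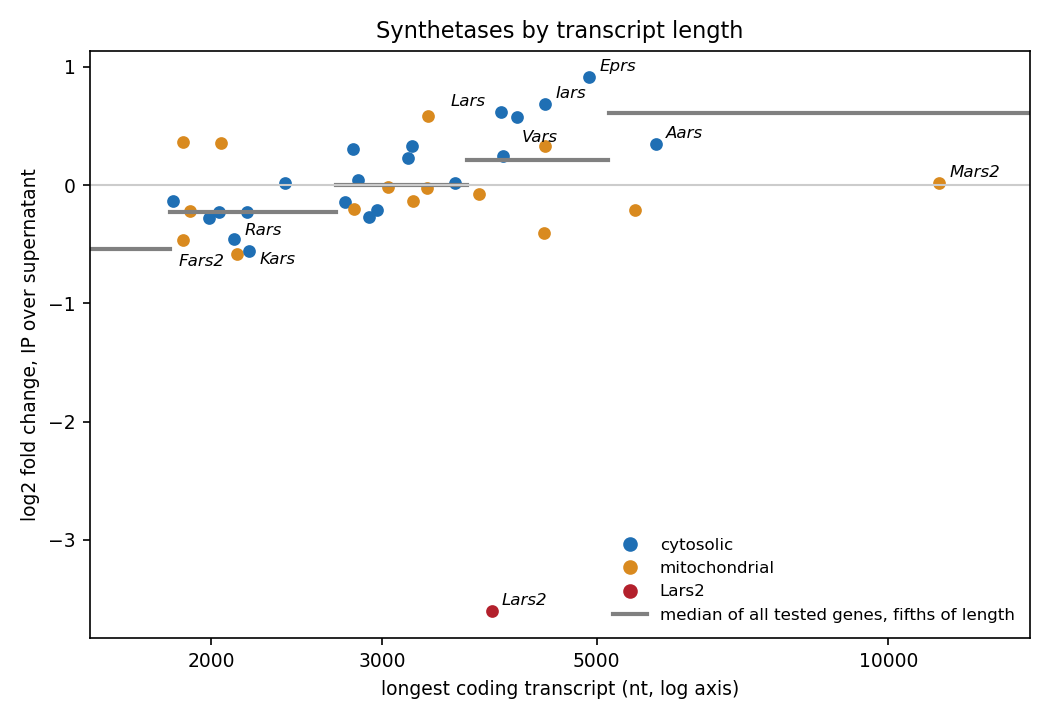
Log2 fold change of negative IP over supernatant against the length of the longest coding transcript in nt (log axis) for the 37 synthetases, with grey bars for the median of all tested genes in 5 bins of length. Cytosolic genes tend to climb with length, but Aars, the longest of them at 5750 nt, lies at 0.34, below Eprs at 0.91. Lars2 lies at -3.60 among genes whose median is 0.21.

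Within the young pools, 27.1% of genes and 6 of 37 members passed. Lars2 changed by -3.93 (SE 0.26), Eprs by 0.94 (SE 0.15), Kars by -0.71 (SE 0.17), Vars by 0.67 (SE 0.18), Rars by -0.60 (SE 0.17) and Hars, the histidyl enzyme, by -0.44 (SE 0.14). Within the adult pools, with 2 libraries a fraction, 10.9% of genes and 3 members passed, namely Lars2 at -3.28 (SE 0.31), Lars at 0.96 (SE 0.24) and Eprs at 0.88 (SE 0.18). That made 2 members higher and 1 lower in the adult IPs, against 6.39% and 4.49% of genes. Without young negative supernatant 1 or 2, 3 members passed in the young pools. Without adult negative supernatant 1 or 2, Lars2 alone of the members passed in the adult pools.

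The difference between the 2 ages in the change from supernatant to IP was called for no member and no gene by edgeR (0.00% of genes), and limma voom and DESeq2 called 0 members too. At an unadjusted p under 0.05 stood 2 members and 6.53% of genes. For Lars2 this difference was 0.65 (SE 0.36, adjusted p 0.821). The GFP-positive pool, which was not among the negative pools fitted here, gave a log2 ratio of IP to supernatant of -3.61 for Lars2, beside -3.31 and -3.22 in the adult negative pools and -4.11, -3.84 and -3.60 in the young ones. Lars2 was low in the IP with tagged ribosomes and in the IPs without.

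For age, adult and young were compared in the 10 second-set supernatants, 5 pools each, with pool origin (new or prior) as a term. The prior pools of both ages carried the tagged genotype, but among the new pools no genotype was held by both ages. Age and genotype were thus partly mixed here. No synthetase passed in edgeR, limma voom or DESeq2, against 9.42% of 15938 genes in edgeR, of which 4.20% were higher and 5.22% lower in adults. Every member lay within -0.25 (Lars2, SE 0.15, adjusted p 0.329) and 0.23 (Qars, SE 0.09). At an unadjusted p under 0.05 stood 4 members, Qars at 0.23, Farsa at -0.24, Tarsl2 at -0.22 and Hars at -0.18, against 24.7% of genes. Without the GFP-positive supernatant Farsa was called at -0.31 (adjusted p 0.043). Of the mitochondrial genes, 13 of 16 had negative changes with a median of -0.05, and of the cytosolic genes 10 of 21, with a median of 0.02, beside 0.01 for all genes.

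Lars2 stood at 9804, 14513, 8651, 6353 and 6251 CPM in the adult supernatants and at 16495, 12086, 9169, 7812 and 8086 CPM in the young ones, so the ages overlapped. In both ages the prior pools held its lowest values. No member had all adult libraries above or below all young ones, against 2.63% and 3.61% of genes.

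In the negative IPs edgeR called no member between adult (n = 2) and young (n = 3), against 0.727% of genes, and 7 members had an unadjusted p under 0.05, against 17.7% of genes. The largest difference was that of Wars2, the mitochondrial tryptophanyl enzyme, with 3.92 and 1.98 CPM in adult IPs and 9.55, 12.8 and 12.6 CPM in young IPs (log2 -1.96, SE 0.50, adjusted p 0.101). Vars2, the mitochondrial valyl enzyme, differed by -1.25 (SE 0.42, adjusted p 0.167), and DESeq2 called both, Wars2 at adjusted p 0.00157 and Vars2 at 0.0493, whereas limma voom called 0 members. Without adult negative IP 2, edgeR called Cars2 at -2.99 (adjusted p 0.018). Lars2 differed by 0.60 (SE 0.25, adjusted p 0.255). Age and genotype cannot be told apart here, since the adult pools were all GnRH CRE only.

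The technical replicates of the 4 prior pools show how far a member moved between sequencing sets of the same pools. Here 31.1% of 16117 genes passed, and 14 of 37 synthetases, 2 of them higher and 12 lower in the second set, against 15.0% and 16.1% of all genes, and 20 members had an unadjusted p under 0.05, against 40.1% of genes. Lars2 had 7812, 8086, 6353 and 6251 CPM in the second set and 3530, 3289, 3010 and 2844 CPM in the first set. The sets did not overlap, and the log2 change was 1.15 (SE 0.03, adjusted p 2.95e-12), a level 2.22 times higher. Only 1 gene of the table had a smaller p.

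No other mitochondrial enzyme was called higher in the second set, and 5 were called lower. By sign alone, 4 of the 15 were positive and 11 negative, and the highest was Wars2 at 0.41 (SE 0.17, adjusted p 0.0863), which was not called. Vars2 (valyl) had 9.73, 9.71, 10.6 and 11.9 CPM in the second set and 20.4, 17.5, 16.1 and 13.9 CPM in the first, a log2 change of -0.70 (SE 0.13, adjusted p 7.4e-04). Aars2 (alanyl) changed by -0.49 (SE 0.08), Pars2 (prolyl) by -0.40 (SE 0.11), Sars2 (seryl) by -0.31 (SE 0.08) and Tars2 (threonyl) by -0.28 (SE 0.07).

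Of the cytosolic enzymes 7 were called lower and 1 was called higher in the second set, while by sign alone 15 of 21 were negative and 6 positive. Vars had 43.4, 40.6, 42.0 and 41.6 CPM in the second set and 56.1, 58.7, 60.7 and 60.4 CPM in the first, a log2 change of -0.51 (SE 0.06, adjusted p 2.7e-05). Aars (alanyl) changed by -0.36 (SE 0.04), Cars (cysteinyl) by -0.35 (SE 0.07), Tars (threonyl) by -0.26 (SE 0.07), Mars (methionyl) by -0.26 (SE 0.06), Nars (asparaginyl) by -0.25 (SE 0.04) and Wars (tryptophanyl) by -0.21 (SE 0.04). Farsb rose by 0.16 (SE 0.05). Wars and Farsb, the smallest of the 14 changes, were added to the named genes after their values were seen. In the valine, alanine and threonine pairs both enzymes were called lower, and in the leucine pair Lars changed by -0.05 (SE 0.07) beside the rise of Lars2. All second-set libraries lay above all first-set libraries for Lars2 alone, against 9.26% of genes, and below them for 7 members, against 6.44%. Without the pool as a term, 6 of the 14 calls were kept.

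**Figure D5:**
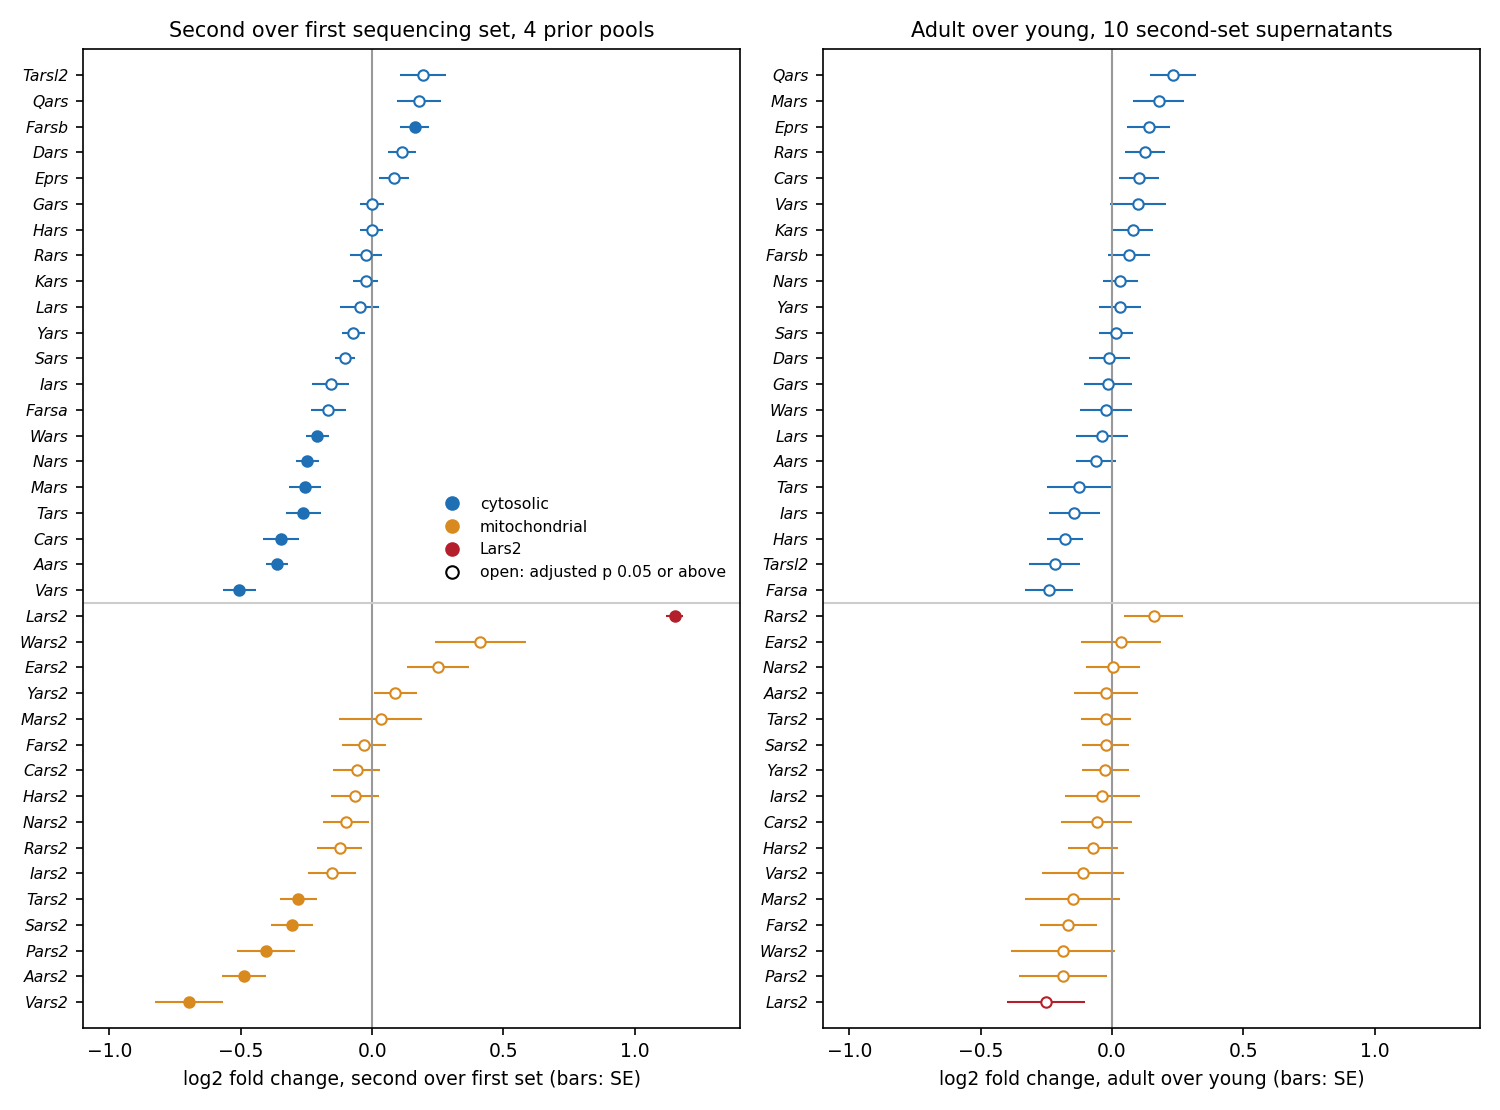
Log2 fold changes with standard errors for each synthetase, at left for the second over the first sequencing set of 4 prior pools and at right for adult over young in 10 second-set supernatants; filled symbols mark an adjusted p under 0.05. At left Lars2 lies at 1.15 and 12 members are called lower, and at right every symbol is open.

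Rn45s, the gene for the ribosomal RNA precursor, moved with Lars2 between the sets and between the fractions, and its part in the Lars2 changes was not tested. Of 10 listed genes with ribosomal RNA sequence at their loci or used as such, the table held 2, Rn45s and Camk1d. In the IP over the supernatant only Rn45s was called, and the median of the 2 was -0.39. In the second over the first set both were called higher, against 15.0% of all genes. Rn45s was higher in the second than in the first set by 3.24 (SE 0.19, adjusted p 2.7e-08). It was lower in the negative IPs than in the supernatants by a log2 change of -1.09 (SE 0.14, adjusted p 2.8e-04). Its levels were 3560 to 5080 CPM in the negative IPs, 7589 to 11487 CPM in the negative supernatants, 5786 to 6721 CPM in the second-set prior supernatants and 435 to 1029 CPM in the first set. The ratio of Lars2 to Rn45s was not constant: 0.191 to 0.306 in the negative IPs, 1.07 to 2.17 in the negative supernatants, 0.956 to 1.31 in the second set and 2.76 to 7.33 in the first set of the prior pools. Both genes were higher in the new than in the prior second-set supernatants, so a correlation over all 10 mixes these 2 clusters. Computed all the same, it was positive and stronger than that within the new pools, and its value is not given for that reason. Within the 6 new pools the correlation of their log2 CPM was 0.42 (exact permutation p 0.378, two-sided, and 0.378 when adjusted over the 2 relations computed; Spearman 0.37, exact p 0.497) and -0.09 without the 2 pools farthest in Rn45s. The 4 prior pools are too few for a value of their own, so a relation between pools could be tested only in those 6.

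Lars2 lies on the plus strand of chromosome 9 at 123366927 to 123462666 (GRCm38), and its main transcript of 3894 nt ends in a 3′ untranslated region of 986 nt, from position 2909. A stretch of that region is held in common with other annotated transcripts. Positions 3233 to 3329 matched AA474408 at 94.8% of 97 aligned nt, positions 3163 to 3212 matched the same transcript at 96.0% of 50 nt, and positions 3278 to 3349 matched Gm15564 at 98.6% of 72 nt. Neither gene is in the count table. Whether any reads from such copies were counted at Lars2 was not tested. As general background, this end of mouse Lars2 is known to resemble large-subunit ribosomal RNA. No ribosomal RNA sequence was at hand for a comparison, and the counts per gene do not show where in Lars2 the reads lie.

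The genes most like Lars2 in pattern were not synthetases. Over the 20 libraries the highest Pearson correlations of log2 CPM, from 0.966 to 0.977 among 10339 genes, were those of Chmp5, Ufc1, Cox7a2l, Mrfap1, Srp14, Cisd1, Fkbp1a and Gabarap. Over the 14 supernatants they were those of Hnrnpul2, Emg1, Ptpn11, Rpl7a, Hnrnpa0, Fmnl2, Tomm22 and Sash1, from 0.957 to 0.967. The libraries fall into groups by fraction and sequencing set, which all genes share.

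In the GFP-positive IP, which adds the tagged ribosomes of GnRH neurons, no synthetase passed against the adult negative IPs in edgeR, limma voom or DESeq2, and 1 gene of 16586 did (0.00603%) in edgeR. The spread of that single library was taken from the negative IPs. The members' median was 0.36, that of the cytosolic genes 0.39 with 17 of 21 positive, that of the mitochondrial genes 0.34 with 9 of 16 positive, and that of all genes -0.02. At an unadjusted p under 0.05 stood Vars at 0.81 (SE 0.29), Wars at 0.79 (SE 0.29), Gars at 0.58 (SE 0.25), Sars at 0.56 (SE 0.20) and Lars2 at -0.81 (SE 0.29), 5 members against 4.95% of genes. Vars had 88.0 CPM in the GFP-positive IP and 46.5 and 56.4 CPM in the adult negative IPs. Lars2 had 708 CPM in the GFP-positive IP and 990 and 1553 CPM in the adult negative IPs.

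Of the 5 cytosolic genes with the TGATGNAA motif, Gars and Yars were called in none of the comparisons. In the IP over the supernatant, where 32.1% of all genes were called, Iars was called at 0.68, whereas Aars at 0.34, Tars at 0.24, Gars at 0.02 and Yars, the tyrosyl enzyme, at -0.27 were not. In the second over the first set, where 31.1% of all genes were called, Aars and Tars were called lower, and Gars at 0.00, Yars at -0.07 and Iars at -0.16 were not called. With age none was called. A palindrome of the type bound by the mitochondrial biogenesis factor NRF1, searched on both strands, was in 3 of 14 cytosolic genes (Farsb, Kars and Tars), 2 of 14 mitochondrial genes (Iars2 and Mars2) and 6.997% of all genes (6.23% of promoters). The ETS-type motif CCGGAAG was in 5 of 14 cytosolic genes, 4 of 14 mitochondrial genes and 9.93% of all genes (8.86% of promoters).

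Among the partners of these enzymes, the multisynthetase complex, which gathers several cytosolic synthetases on scaffold proteins, changed in mixed directions. Of its 8 enzymes 3 rose (Eprs, Iars and Lars), 2 fell (Kars and Rars) and 3 were not called (Mars, Qars and Dars) in the IP over the supernatant, with a median of 0.04. Over all genes 15.8% were called higher and 16.2% lower in this comparison, which are the shares to set beside each list's counts here. Of its 3 scaffold genes, Eef1e1 fell by 0.97 (SE 0.14) and Aimp2 by 0.69 (SE 0.11), while Aimp1 was not called. Of 3 editing genes, which remove wrongly charged amino acids, Dtd1 fell by 0.60 (SE 0.14) and Aarsd1 by 0.39 (SE 0.10).

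Of 9 genes for the charging and modification of mitochondrial transfer RNAs, Gtpbp3 rose by 0.49 (SE 0.16). Mtfmt, which formylates the initiator, rose by 0.46 (SE 0.16). Pus1 fell by 0.76 (SE 0.21) and Gatc, a subunit of the enzyme that makes mitochondrial glutaminyl-tRNA, by 0.63 (SE 0.11). Beside the same 15.8% and 16.2% of all genes, of 9 mitochondrial translation factors 1 rose (Gfm2, 0.56, SE 0.16) and 1 fell (Tsfm, -0.46, SE 0.14). Of 4 selenocysteine charging genes 1 rose (Secisbp2, 0.58, SE 0.18). Of 20 target genes of ATF4, 3 rose and 4 fell, close to the 15.8% and 16.2% of all genes, with a median of 0.19, against -0.03 for all genes. Trib3, a pseudokinase, rose by 3.10 (SE 0.45), Aldh1l2, a mitochondrial folate enzyme, by 1.81 (SE 0.39) and Sesn2 by 0.51 (SE 0.16), whereas the serine pathway genes Psph and Psat1 changed by -0.82 (SE 0.27) and -0.51 (SE 0.15), Ddit3 by -0.75 (SE 0.17) and Ddit4 by -0.41 (SE 0.13).

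In the adult over the young supernatants, 4.20% of all genes were called higher and 5.22% lower. None of the multisynthetase complex, scaffold, mitochondrial charging and modification, mitochondrial translation or selenocysteine genes passed there. Aarsd1 rose by 0.33 (SE 0.07), and of the ATF4 targets Psat1 rose by 0.41 (SE 0.09) and Ddit4 fell by 0.69 (SE 0.08). In the second over the first set, where 15.0% of all genes were called higher and 16.1% lower, Eef1e1 of the scaffold rose by 0.42 (SE 0.05), while Gtpbp3 changed by -0.27 (SE 0.09), Mtrf1 by 0.37 (SE 0.11), Pstk by 0.32 (SE 0.08) and Eefsec by -0.37 (SE 0.07). Of the ATF4 list, Atf4 itself rose by 0.48 (SE 0.05), and Slc7a5, Atf5, Cebpb and Sesn2 were lower. In the GFP-positive over the adult negative IPs no gene of these lists passed.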

How the data were processed

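RNA-seq counts per gene were read from the authors' deposited table (19269 genes, 20 libraries, whole numbers). Per the submitters' processing notes, the authors' tools were HTSeq 0.6.1, TopHat2 2.0.13, DESeq2 1.14.1, Bowtie2 2.2.1, Cuffdiff 2.1.1 with Cufflinks, and FastQC 0.11.3, with build mm10. No role or order of these tools and no strand setting is given in the sources used here. Reads of overlapping or near-identical genes may be shared. Groups follow the sample titles. A sentence of the series text names another library as the GFP-positive supernatant, and the exchange was tried as an alternative. Libraries held 27745296 to 50517581 counts, and the lowest count of a member was 19.

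Tests used edgeR 4.0.16 (quasi-likelihood, TMM scaling, filterByExpr with a minimum count of 10) in R 4.3.3, with Benjamini-Hochberg adjustment over all genes and a threshold of 0.05. The scripts were tested on simulated data. CPM were TMM-scaled over all 20 libraries, whereas fold changes come from the fit of each comparison. Limma voom (limma 3.58.1), DESeq2 1.42.0, other scaling, no filter, a pool block and leaving out each library were alternatives. Same-numbered IP and supernatant of the young negative pools correlated at 0.265, 0.169 and 0.409 in their deviations from the group means. Differently numbered ones correlated at -0.357 to 0.113. With 2 adult pools the deviations mirror each other, so the adult values (0.195 and -0.195) cannot decide the pairing. The title numbers were taken to pair the libraries in the pool block and in the ratios of single pools. The main fits of IP and supernatant used group means without pairing. Gene models were GENCODE vM21 (GRCm38), promoters RefSeq GRCm38.p6, and transcripts were matched with BLAST 2.17.0.

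Members, lists and tests were chosen with earlier results of these data known. Every called member was named, up to the 12 with the largest change, together with Lars2 and, in the comparison of fractions, Lars, Kars, Gars, Qars and Iars2. Other genes were named after their values were seen.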

Additional observations from a re-analysis of the deposited data

Results flagged for a closer look

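Single libraries stood apart from the rest of their group for 7 of 111 member and group combinations checked, where chance marks about 5% of groups, or 1 in 20. Among the negative IPs, Cars2 (mitochondrial cysteinyl enzyme) was at 3.14 CPM in adult negative IP 1, with the nearest other library at 21.5 CPM, and Nars was at 308 CPM in adult negative IP 2, with the nearest at 253 CPM. Among the adult second-set supernatants, Aars2 was at 13.96 CPM and Vars at 32.4 CPM in adult negative supernatant 2, with the nearest libraries at 20.2 and 40.6 CPM. Cars was at 52.5 CPM in the GFP-positive supernatant, with the nearest at 46.3 CPM. Among the young second-set supernatants, Eprs was at 57.0 CPM and Hars2 at 33.6 CPM in young prior pool 1, with the nearest libraries at 68.9 and 26.2 CPM.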

How the results depend on the processing

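Lars2 kept its direction and its side of the threshold under every alternative run, with log2 changes in IP over supernatant from -3.78 to -3.46 without single libraries and from -3.61 to -3.57 otherwise, and in the second over the first set from 1.10 to 1.18. The counts of members called depended more on single libraries. In IP over supernatant, leaving out each library gave 4 to 10 members in place of 8, 3 to 8 cytosolic genes in place of 6 and 1 to 3 mitochondrial genes in place of 2. Without adult negative supernatant 1 the count was 5, and without adult negative supernatant 2 it was 4, of which 3 cytosolic. Without young negative supernatant 1 or 2, or either adult one, 1 mitochondrial gene was left, as it was with Lars2 and Rn45s left out before scaling, an alternative added after seeing the data, by its construction. The young pools gave 3 to 7 members, the 3 without young negative supernatant 1 or 2, and the adult pools gave 1 to 4. Leaving out single libraries gave 0 to 1 for the difference between ages in the fraction change and for adult over young in the negative IPs, in both the 1 being Cars2 without adult negative IP 2. In the supernatants it gave 0 to 1, the 1 being Farsa (-0.31, adjusted p 0.043 in edgeR) without the GFP-positive supernatant. DESeq2 called 2 members, Wars2 and Vars2, for adult over young in the negative IPs. Gars, near 0, reversed to -0.027 with the supernatant labels exchanged and ranged from -0.062 to 0.082 without single libraries. With pool as a replicate block 9 members were called in IP over supernatant (Lars2 -3.59), 6 in young (-3.89), 3 in adult (-3.28) and 0 for the difference between ages (0.61). Without the replicate block 6 members in place of 14 were called between the sets, against 11 to 16 without single libraries. The cause of these shifts was not tested. The adult fits hold 2 pools a fraction and the GFP-positive IP is 1 library, which limits both.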

Other observations

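Some mitochondrial enzymes of low level had 1 negative IP library far below the others. Mars2 had 0.372, 7.79 and 14.01 CPM in the young negative IPs and 4.45 and 6.05 CPM in the adult ones, the lowest resting on 19 counts. Pars2 had 1.76, 7.77 and 11.7 CPM in the young negative IPs and 14.9 and 8.10 CPM in the adult ones. In the negative supernatants Mars2 lay between 4.19 and 7.34 CPM and Pars2 between 6.77 and 11.3 CPM.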
